A study of Mus musculus with 8 samples.

Results

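Semaphorins, plexins and neuropilins form a family of guidance cues and receptors, described here in hepatic macrophages of mice with acetaminophen liver injury. Array rows with exactly 1 gene symbol of the forms Sema3 to Sema7, Plxna to Plxnd, Plxdc1 and Plxdc2, or Nrp1 and Nrp2 gave 33 genes, of 22180 genes measured in all. They comprised 20 semaphorin ligands and 13 genes grouped as receptors. Members were chosen by symbol, and rows were selected on 1 measured value, the mean over all 8 arrays, which decided between 2 rows each for Plxna1 and Plxnb1 and did not use the groups. Each group held 4 arrays of total RNA from male FVB/N mice aged 8 weeks. The rTF group received 25 µg of recombinant transferrin, the iron carrier of plasma. The rCPS1 group received 50 µg of recombinant CPS1, a mitochondrial enzyme of the urea cycle that hepatocytes hold in large amounts. Mice of both groups were given acetaminophen at 350 mg/kg, an overdose that kills hepatocytes, 12 h after the protein had been injected by the tail vein, so neither group was uninjured. The protein and its amount changed together. Every sample title names the same mouse number, so separate mice behind the 4 replicates of a group are not established. The p-values then reflect the spread among these arrays, and that spread may be technical.

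Semaphorins are secreted or membrane-bound proteins that share a sema domain. Plexins are their main receptors and act on small GTPases and the cytoskeleton, and neuropilins are co-receptors that hold secreted class 3 semaphorins and VEGF. In immune tissue these proteins guide the movement of macrophages and their contact with lymphocytes, and in liver the sinusoidal endothelium carries neuropilins and several plexins as well.

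The arrays were alike in level, with a log2 median of 3.55 to 3.68, and rTF replicate 2 stood apart on the first principal component (42.6, the remaining 7 arrays -23.1 to 7.04). The macrophage genes Adgre1 (9.06 ± 0.39 with rTF and 9.29 ± 0.30 with rCPS1, SD, n = 4 each) and Csf1r (10.47 ± 0.29 and 10.46 ± 0.16) and the Kupffer cell gene Clec4f (9.50 ± 0.26 and 9.66 ± 0.50) were measured above the median row level of 3.60. That level was also passed by 12384 of all 22180 genes, so it says little about cell content. For the 12 Kupffer cell markers the mean was 8.81 to 9.48 with rTF and 8.92 to 9.73 with rCPS1. The mean of 12 sinusoidal endothelial markers was 11.26 to 11.59 with rTF and 11.32 to 11.52 with rCPS1, so RNA of those cells was present too. Other marker means also lay above the median row level. They were 7.45 to 8.04 and 7.24 to 7.97 for hepatocytes, and 6.43 to 7.74 and 6.09 to 6.69 for T and NK cells. For B cells they were 5.17 to 6.10 and 5.04 to 6.29. Fewer cells of a type and less RNA per cell cannot be told apart in these bulk samples. Precision is limited by the 4 arrays in each group: over the 33 genes the median standard error of a log2 difference was 0.18.

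Among the 33 genes, 1 ligand was lower and 3 plexins were higher with rCPS1 at an unadjusted p under 0.05, and the members at the extremes were Sema7a (1.60-fold lower) and Plxnb1 (1.73-fold higher). A second, dimmer row of Plxnb1 differed by -0.17 in the other direction, and the groups overlapped for Plxnb3, another of the 3 plexins. No member passed over all genes. In limma's test with Benjamini-Hochberg adjustment 0 of 33 had an adjusted p under 0.05 (smallest 0.862), against 0% of all genes. At an unadjusted p under 0.05 there were 4 of 33 members (12.1%), against a background of 4.67% of the 22180 genes (1035 genes). By direction that was 1 member lower, against 2.79% of all genes, and 3 higher, against 1.88%. The groups did not overlap for 4 members, against 2.92% of all genes. With rCPS1 below rTF these were Sema7a and Sema4a, against 1.97% of all genes, and with rCPS1 above they were Plxnb1 and Plxna4, against 0.947%. The members were chosen with earlier results known, among them that of Sema7a, so these counts are a description. The median log2 difference, rCPS1 minus rTF, was 0.057 for the 20 ligands and 0.045 for the 13 receptors, against -0.018 for all genes. Of the ligands 7 were lower and 13 higher, and of the receptors 4 were lower and 9 higher, so the median did not set ligands against receptors. The share lower was 35% of ligands and 30.8% of receptors, against 54.4% of all genes.

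**Figure D1:**
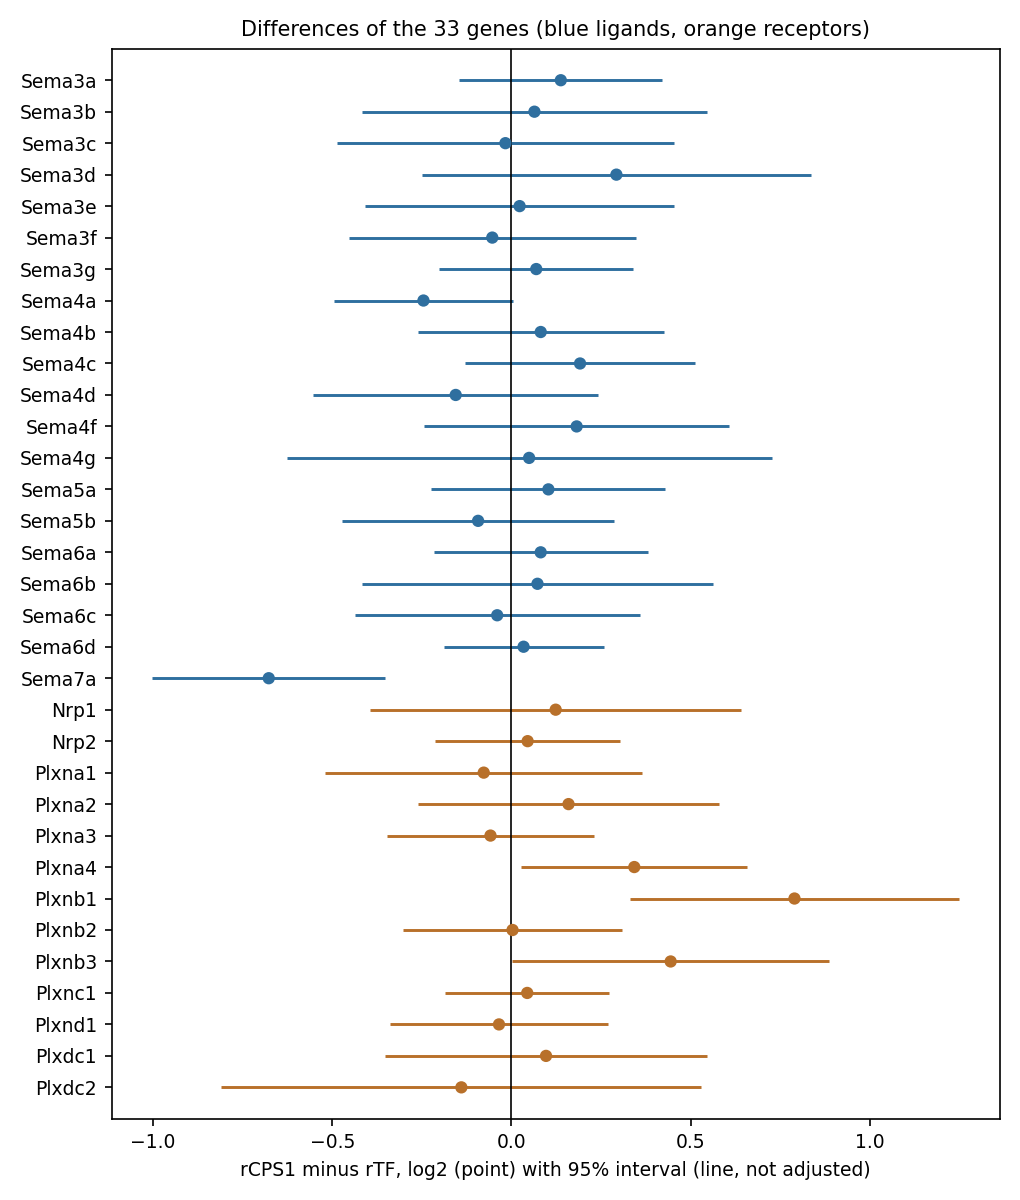
Log2 difference between rCPS1 and rTF (x axis) for each of the 33 genes (y axis), ligands in blue and receptors in orange, with limma's unadjusted 95% confidence interval as a line. Sema7a lies at -0.68 and Plxnb1 at 0.79, and the intervals of Plxna4 and Plxnb3 also exclude 0, whereas no adjusted p was under 0.05.

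Sema7a encodes a semaphorin held to the cell surface by a GPI anchor, which binds plexin C1 and beta 1 integrin and stimulates monocytes and macrophages. Its log2 level (probe set 17517812) was 5.56, 6.09, 5.78 and 5.82 in rTF replicates 1 to 4 and 5.15, 4.92, 5.38 and 5.10 in rCPS1 replicates 1 to 4. All rCPS1 arrays were lower than any rTF array, and rTF replicate 2 was the highest. The means were 5.81 ± 0.22 with rTF and 5.14 ± 0.19 with rCPS1 (SD, n = 4 each), a log2 difference of -0.68 ± 0.15 (SE, 95% interval -1.0 to -0.35), with a limma adjusted p of 0.862. An exact permutation test (two-sided, 70 assignments) gave an unadjusted p of 0.0286 for this gene, the smallest that 4 against 4 arrays allow. Groups of 4 that do not overlap always give this value, so it only restates the lack of overlap. The same holds below for Sema4a, Plxnb1 and Plxna4. With any 1 array left out the difference stayed between -0.76 and -0.58.

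The receptors of Sema7a had close values in both groups. Plxnc1, the plexin it binds, was at 11.24, 11.34, 11.46 and 11.41 in the rTF arrays and at 11.41, 11.46, 11.32 and 11.45 in the rCPS1 arrays, a log2 difference of 0.044 ± 0.10 (SE, 95% interval -0.18 to 0.27). The groups overlapped over nearly their whole range. Itgb1, the beta 1 integrin chain, was at 10.44 to 10.55 with rTF and 10.49 to 10.59 with rCPS1, differing by 0.036 ± 0.095 (95% interval -0.18 to 0.25), and Itga1, the alpha 1 chain that pairs with it, differed by 0.084 ± 0.15. None of these intervals reached the size of the Sema7a difference.

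**Figure D2:**
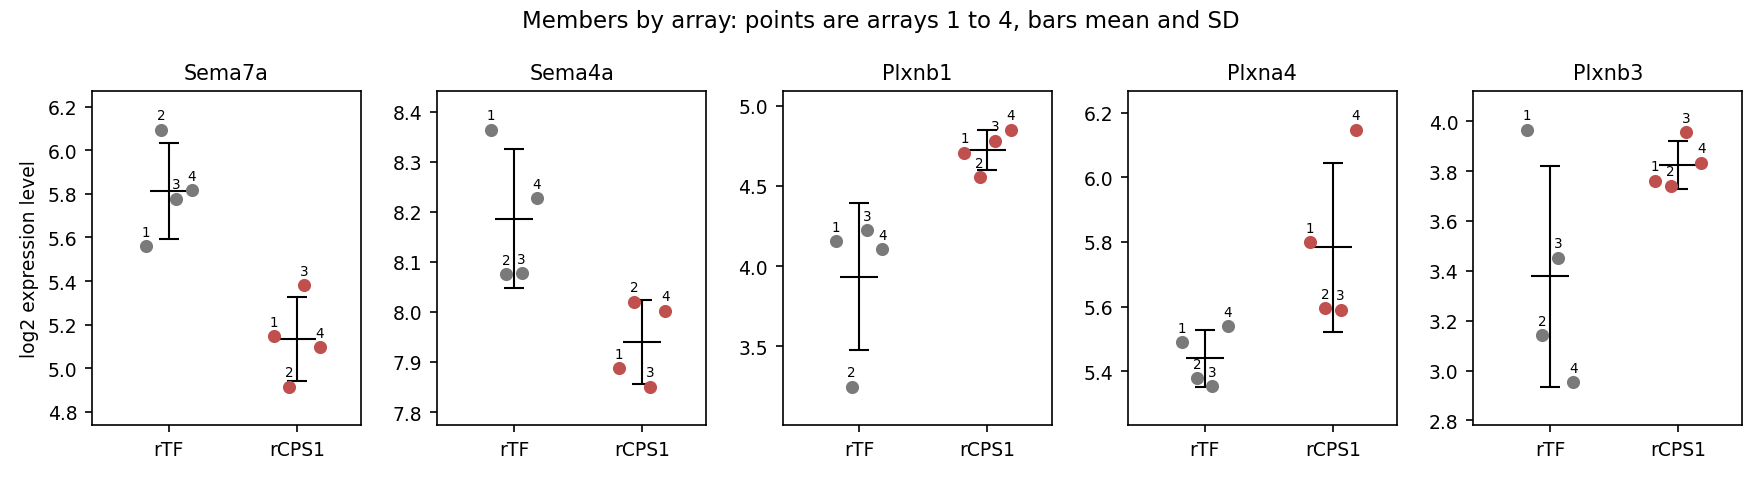
Log2 expression level (y axis) of the 5 members with an unadjusted p under 0.05 or groups that did not overlap, in 4 rTF and 4 rCPS1 arrays (points, numbered by replicate), with the group mean and SD as bars; each panel has its own axis range. The rCPS1 arrays lie below every rTF array for Sema7a and Sema4a and above every rTF array for Plxnb1 and Plxna4, whereas rTF replicate 1 of Plxnb3 (3.97) lies above all rCPS1 arrays.

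Upstream sequence is shown for Sema7a and Plxnb1, the members of largest difference in each direction, as context for both genes. The 250 bases before the listed start site come from the RefSeq promoter table (GRCm38.p6, plus strand, chr9:57939862-57940111 for Sema7a and chr9:109095186-109095435 for Plxnb1), and other RefSeq models of both genes begin further upstream. Capitals mark the GC box GGGCGG or its reverse complement.
Sema7a: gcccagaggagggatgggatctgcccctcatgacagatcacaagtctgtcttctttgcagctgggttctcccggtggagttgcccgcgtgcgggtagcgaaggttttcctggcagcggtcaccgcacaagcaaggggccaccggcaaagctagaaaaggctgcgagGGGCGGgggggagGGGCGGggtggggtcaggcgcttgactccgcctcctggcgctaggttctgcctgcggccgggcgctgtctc
Plxnb1: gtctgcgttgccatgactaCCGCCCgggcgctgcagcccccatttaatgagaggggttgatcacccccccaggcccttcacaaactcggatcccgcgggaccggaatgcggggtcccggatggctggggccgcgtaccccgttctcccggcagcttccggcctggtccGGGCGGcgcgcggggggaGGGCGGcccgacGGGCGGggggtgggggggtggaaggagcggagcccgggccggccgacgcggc
The Sema7a window held 2 GC boxes and the Plxnb1 window 4, counted on both strands. At least 1 was held by 32.7% of all 32851 windows of that length and by 27 of the 37 windows of member genes. G and C made up 66.4% of the Sema7a window and 75.2% of the Plxnb1 window, against a median of 52.4%. On both strands neither window held the letters TATAAA (12.4% of windows), CCAAT (33.8%), the AP-1 letters TGANTCA (6.75%) or the purine box GAGGAA (23.3%). In the same order, these were held by 0, 7, 3 and 12 of the 37 member windows. The arrays did not measure binding at either window.

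Sema4a, a transmembrane semaphorin of dendritic cells and macrophages that acts on T cells, was at 8.36, 8.08, 8.08 and 8.23 in rTF replicates 1 to 4 and at 7.89, 8.02, 7.85 and 8.00 in rCPS1 replicates 1 to 4. The rCPS1 arrays lay below every rTF array, by a narrow gap between rTF replicates 2 and 3 and rCPS1 replicate 2. The log2 difference was -0.25 ± 0.11 (SE), or 1.19-fold lower, with an unadjusted limma p of 0.0524 and an adjusted p of 0.980. The exact permutation p was 0.0286, which the lack of overlap fixes, so it adds nothing to the limma result. Leaving out rTF replicate 2 gave an unadjusted limma p of 0.041 and leaving out rTF replicate 1 one of 0.133. The exact p was 0.0571 without rTF replicate 1 and 0.0857 without rCPS1 replicate 1 or 3. Those tests ran over fewer assignments and with groups of unequal size, where a lack of overlap does not fix the p. The groups still did not overlap, so these values show no loss of separation and cannot be compared with 0.0286.

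The neutrophil and monocyte marker lists differed in the same direction as Sema7a and Sema4a. Of all genes, 54.4% were lower with rCPS1, and 2.79% were lower at an unadjusted p under 0.05. All 13 measured neutrophil markers were lower with rCPS1, 11 of them at an unadjusted p under 0.05. Their mean log2 level was 6.21 to 6.92 with rTF and 5.06 to 5.92 with rCPS1, differing by -1.0. The rows of highest mean in that list were Retnlg (8.42 ± 0.67 and 6.89 ± 0.98, SD, n = 4 each), Csf3r (8.32 ± 0.091 and 7.79 ± 0.20) and Lcn2 (8.14 ± 0.36 and 7.19 ± 0.70). All 12 monocyte markers were lower, 8 at an unadjusted p under 0.05, and their mean, which differed by -0.55, was 8.36 to 8.70 with rTF and 7.80 to 8.01 with rCPS1. T and NK cell markers were lower in 13 of 13, 3 of them at an unadjusted p under 0.05, with means of 6.43 to 7.74 and 6.09 to 6.69. For these markers rTF replicate 2 was the highest array, as it was for Sema7a. Without rTF replicate 2 the Sema7a difference was -0.58. The T and NK cell marker mean differed by -0.51 with all arrays and by -0.23 without that array. Kupffer cell markers were higher in 9 of 12 and lower in 3, and B cell markers were higher in 7 of 8. Their means differed by 0.15 and 0.13, with overlapping groups. Dendritic cell markers were lower in 7 of 9, and their mean differed by -0.17, also with overlap. No adjusted p of a gene in these lists was under 0.05, and their part in the Sema7a and Sema4a values was not tested.

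The other class 4 semaphorins, which are transmembrane proteins, had overlapping groups. Sema4d (CD100), the ligand of plexin B1 and plexin B2 that lymphocytes express strongly, was at 8.89 in rTF replicate 1 and between 8.01 and 8.39 in the other 7 arrays, a log2 difference of -0.16 ± 0.18 (SE). Sema4c, which binds plexin B2, was at 7.48 to 8.11 with rTF and within 7.95 to 8.00 with rCPS1, differing by 0.19 ± 0.14. Sema4b differed by 0.082 ± 0.15. The rows of Sema4f (2.65 with rTF and 2.83 with rCPS1) and Sema4g (3.34 and 3.39) lay below the median row level. Sema4g ran from 2.47 in rCPS1 replicate 2 to 4.14 in rCPS1 replicate 1, a wider spread within a group than the difference between groups (0.049 ± 0.30).

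The class 3 semaphorins are the secreted ligands of the family, and no member of the 7 had an unadjusted p under 0.05. Sema3f, which binds neuropilin 2, was the ligand row of highest mean. It was at 9.42, 9.37, 9.79 and 9.52 in rTF replicates 1 to 4 and at 9.56, 9.91, 9.11 and 9.29 in rCPS1 replicates 1 to 4. The rCPS1 arrays held both the highest and the lowest value, and the log2 difference was -0.054 ± 0.18 (SE). Sema3d ran from 6.32 to 7.17 with rTF and from 6.62 to 7.50 with rCPS1, differing by 0.29 ± 0.24, the widest difference of the class and no larger than the spread between replicates (SD 0.42 and 0.40). Sema3c was at 4.15 ± 0.33 and 4.13 ± 0.36. Rows of Sema3a, Sema3b, Sema3e and Sema3g lay below the median row level, with differences of 0.14, 0.064, 0.023 and 0.069. Sema3a is the classical ligand of neuropilin 1 and Sema3e binds plexin D1 directly, and the rows of both ligands were among these.

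Class 5 and class 6 semaphorins are transmembrane proteins, class 5 with thrombospondin repeats. Sema6a, a ligand of plexin A2 and plexin A4, was at 9.23, 9.27, 9.63 and 9.36 in rTF replicates 1 to 4 and at 9.46, 9.54, 9.21 and 9.61 in rCPS1 replicates 1 to 4, a difference of 0.082 ± 0.13 (SE). Sema6b was at 8.31, 8.38, 9.16 and 8.82 with rTF and at 8.61, 9.06, 8.34 and 8.95 with rCPS1, a difference of 0.073 ± 0.22. For both genes the groups overlapped, and rTF replicate 3 was the highest array. Sema6d, a ligand of plexin A1, varied little (8.32 to 8.54 over all 8 arrays, a difference of 0.034 ± 0.10). Sema5a differed by 0.10 ± 0.15 and Sema5b by -0.093 ± 0.17, and the row of Sema6c (2.90 and 2.86) lay below the median row level.

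Plexins of the B subfamily, the receptors of class 4 and class 5 semaphorins, held the 2 largest receptor differences. Plxnb1 (probe set 17522167), the receptor of Sema4d, was at 4.15, 3.25, 4.22 and 4.10 in rTF replicates 1 to 4 and at 4.71, 4.55, 4.78 and 4.85 in rCPS1 replicates 1 to 4. Each rCPS1 array lay above every rTF array, and rTF replicate 2 lay well below the other rTF arrays. The means were 3.93 ± 0.46 and 4.72 ± 0.13 (SD, n = 4 each), a log2 difference of 0.79 ± 0.21 (SE, 95% interval 0.33 to 1.25), with an unadjusted limma p of 0.00337, an adjusted p of 0.923 and an exact permutation p of 0.0286. Without rTF replicate 2 the difference was 0.56. The second row of the gene (probe set 17531286) was at 2.09 ± 0.24 with rTF and 1.92 ± 0.20 with rCPS1, differing by -0.17 ± 0.15 in the other direction at a level below the median row, and the mean of both rows gave 0.31 with an unadjusted limma p of 0.0698.

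Plxnb3, a receptor of Sema5a, was at 3.97, 3.14, 3.45 and 2.95 in rTF replicates 1 to 4 and at 3.76, 3.74, 3.95 and 3.83 in rCPS1 replicates 1 to 4. The rTF arrays were scattered and the rCPS1 arrays lay close together, and the groups overlapped through rTF replicate 1. The log2 difference was 0.44 ± 0.20 (SE), with an unadjusted limma p of 0.0494, an adjusted p of 0.980 and an exact permutation p of 0.143, at a mean below the median row level. Its unadjusted limma p was under 0.05 only without rTF replicate 1 (0.0015, difference 0.64) among the 8 fits that left out an array. Plxnb2, the receptor of Sema4c and Sema4d, was at 8.18 to 8.74 with rTF and 8.37 to 8.59 with rCPS1, differing by 0.0030 ± 0.14 (95% interval -0.30 to 0.31).

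Plexins of the A subfamily transmit class 3 signals with neuropilins and bind class 6 semaphorins directly. Plxna4, a receptor of Sema3a and Sema6a, was at 5.49, 5.38, 5.35 and 5.54 in rTF replicates 1 to 4 and at 5.80, 5.60, 5.59 and 6.15 in rCPS1 replicates 1 to 4. The rCPS1 arrays lay above every rTF array, and rCPS1 replicate 4 was the highest. The log2 difference was 0.34 ± 0.14 (SE), with an unadjusted limma p of 0.0359, an adjusted p of 0.980 and an exact permutation p of 0.0286. The unadjusted limma p was 0.067 without rCPS1 replicate 1, 0.099 without rCPS1 replicate 4 (difference 0.22), 0.071 without rTF replicate 2 and 0.080 without rTF replicate 3. The exact p without 1 array ran up to 0.114, although the groups still did not overlap. The groups were then unequal in size, so this value cannot be compared with 0.0286. Plxna2 differed by 0.16 ± 0.19, Plxna1 by -0.077 ± 0.20 and Plxna3, near the median row level, by -0.059 ± 0.13. In Plxna1 and Plxna2 rTF replicate 2 was the lowest array, at 6.61 and 7.57.

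The neuropilins and Plxnd1 had overlapping groups. Nrp1, the co-receptor of Sema3a and VEGF, was at 9.87, 10.79, 10.12 and 10.54 in rTF replicates 1 to 4 and at 10.80, 10.05, 10.25 and 10.71 in rCPS1 replicates 1 to 4. Both groups spanned nearly the same range, with 2 high and 2 low arrays in each, and the log2 difference was 0.12 ± 0.23 (SE). Nrp2, the co-receptor of Sema3f and VEGF-C, was at 10.06, 9.76, 10.06 and 10.11 with rTF and at 10.04, 10.02, 9.97 and 10.15 with rCPS1, a difference of 0.045 ± 0.12. Plxnd1, the receptor of Sema3e, differed by -0.035 ± 0.14. The plexin domain containing genes encode membrane proteins that share a domain with plexins but are not plexins. Plxdc1 differed by 0.096 ± 0.20 and Plxdc2 by -0.14 ± 0.30, and Plxdc2 was at 7.81 in rTF replicate 2 and between 6.18 and 7.27 in the other 7 arrays.

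**Figure D3:**
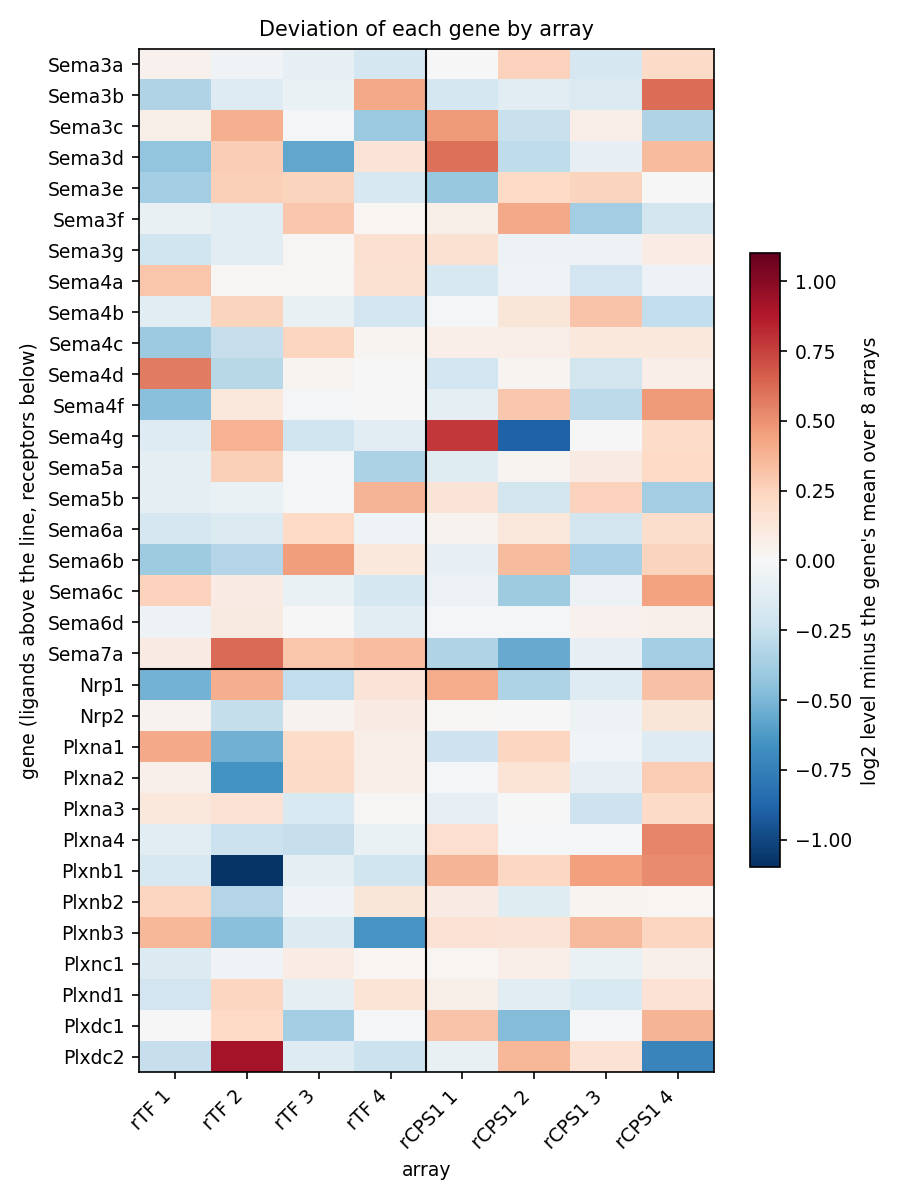
Deviation of each gene's log2 level from its mean over the 8 arrays (colour, blue below and red above) for 33 genes (rows, ligands above the line) and 8 arrays (columns, rTF left of the line). Sema7a is red in all rTF arrays and Plxnb1 blue in all rTF arrays, while Nrp1 and Sema3d are highest in rTF replicates 2 and 4 and rCPS1 replicates 1 and 4.

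Partners and effectors of the family were taken from a list of 59 genes, of which 55 were measured. Of these 32 were lower and 23 higher with rCPS1, and the share lower (58.2%) was near that of all genes (54.4%). An unadjusted p under 0.05 was found for 6 (5 lower and 1 higher), 10.9% against the 4.67% of all genes. None had an adjusted p under 0.05, and the median log2 difference was -0.040. Trem2, a lipid-sensing receptor of macrophages that joins plexin A1 in a complex with the adaptor DAP12, was at 5.20, 5.16, 4.85 and 5.35 in rTF replicates 1 to 4 and at 4.69, 4.77, 4.46 and 4.34 in rCPS1 replicates 1 to 4. The groups did not overlap, and the difference was -0.57 ± 0.14 (SE, limma adjusted p = 0.887). Tyrobp, which encodes DAP12, was at 8.93 to 9.20 with rTF and 8.72 to 8.86 with rCPS1, also without overlap, a difference of -0.22 ± 0.11 with an unadjusted limma p of 0.0699. Plxna1 and Sema6d, the plexin and the ligand of that complex, differed by -0.077 and 0.034 with overlapping groups.

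Vegfc, a lymphatic growth factor that binds neuropilin 2 and the receptor Flt4, was at 4.68, 4.70, 4.94 and 5.05 in rTF replicates 1 to 4 and at 4.44, 4.15, 4.53 and 4.07 in rCPS1 replicates 1 to 4. The rCPS1 arrays lay below every rTF array, with a difference of -0.54 ± 0.14 (SE, limma adjusted p = 0.923). Flt4 differed by 0.042 ± 0.10 and Vegfa by -0.18 ± 0.25. L1cam, an adhesion molecule that works with neuropilin 1, was the higher gene, at 4.65 to 5.31 with rTF and 5.25 to 5.74 with rCPS1, differing by 0.52 ± 0.17 with overlapping groups. Among effectors, the collapsin response gene Crmp1 differed by -0.55 ± 0.18 at a level below the median row and without overlap, the actin-oxidising enzyme gene Mical1 by -0.37 ± 0.13 and the blood cell GTPase gene Rac2 by -0.29 ± 0.13. The neutrophil and monocyte marker means given above differed in the same direction as Trem2, Tyrobp, Vegfc, Mical1 and Rac2. The Kupffer cell mean given above differed in the other direction, and the part of these lists in the values was not tested.

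**Figure D4:**
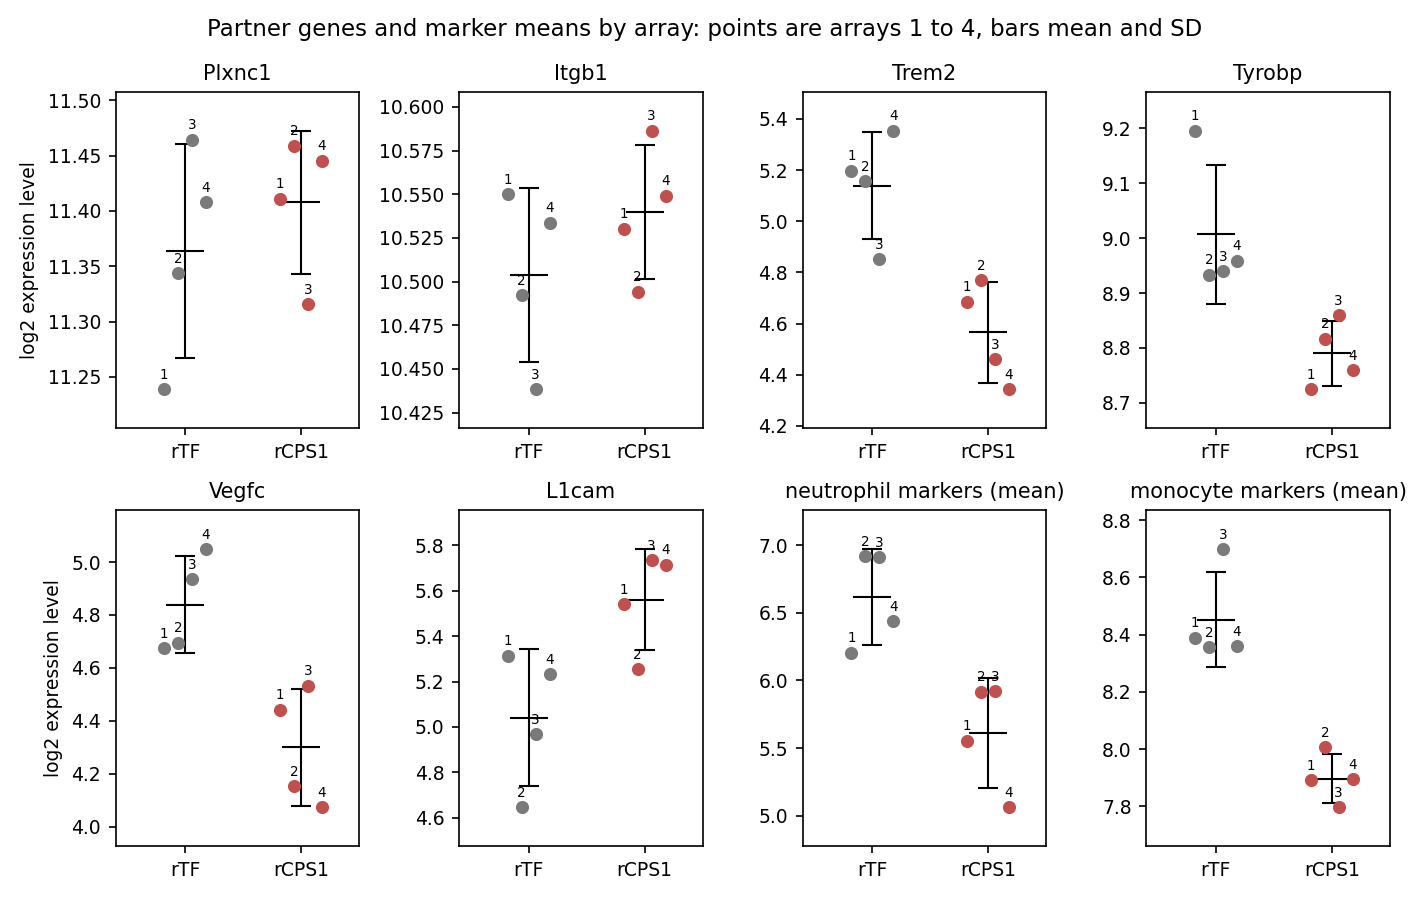
Log2 level (y axis) of receptors of Sema7a (Plxnc1, Itgb1), of partner genes (Trem2, Tyrobp, Vegfc, L1cam) and of the mean of the neutrophil and monocyte markers, in 4 rTF and 4 rCPS1 arrays (points, numbered by replicate), with the group mean and SD as bars; each panel has its own axis range. Trem2, Tyrobp, Vegfc and both marker means lie lower in every rCPS1 array than in any rTF array, while Plxnc1 and Itgb1 overlap.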

How the data were processed

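The authors deposited log2 expression levels from RMA, a method that subtracts background, quantile-normalizes the arrays and summarises probes. RMA and limma are named without versions, per the submitters' processing notes. Because RMA equalises the arrays, these values cannot show a change common to most genes. Macrophage isolation, sampling time and the array's genome build are not given in the sources used here. Of 41345 rows, 23521 had 1 gene symbol, which gave 22180 genes at the row of highest mean, and all 33 members matched the RefSeq table by Entrez ID.

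Groups came from the sample titles. The group difference was fitted on all 22180 genes (limma 3.58.1, R 4.3.3, two-sided, default eBayes, no covariate), with Benjamini-Hochberg adjustment at 0.05. The same fit was also run on simulated data, and its outcome is not given here or used for any result. The members and the lists were chosen with earlier results of these data known. Array values are given for members with an unadjusted p under 0.05 or groups that did not overlap and for the 3 ligands and 3 receptors of highest mean. Partner genes are named at an unadjusted p under 0.05, and Tyrobp, Flt4, Vegfa, Itgb1 and Itga1 for their roles. Levels of different genes are not compared, since rows differ in probes. Alternatives were a filter on dim rows, trended and robust variance, a replicate block, quantile normalization, averaging a gene's rows, array weights and each array left out in turn. Same-numbered arrays of the 2 groups did not deviate together (r from -0.12 to 0.025), and the main fit did not pair them. With 4 arrays in each group this check cannot show whether they shared a processing step. Cd72, Rhod, Rap1a and Pak1 of the partner list were not analysed here.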

Additional observations from a re-analysis of the deposited data

Results flagged for a closer look

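Dixon's ratio was used to ask whether 1 of the 4 arrays of a group stood apart, for the 33 members, 6 partner genes and 11 marker lists. An array stood apart in 6 of 100 groups, and chance alone gives about 1 in 20. In rTF replicate 2, Plxnb1 was at 3.25 (the other rTF arrays 4.10 to 4.22), Plxdc2 at 7.81 (6.64 to 6.76) and Nrp2 at 9.76 (10.06 to 10.11). Sema5b was at 4.73 in rTF replicate 4 (4.26 to 4.33), and Sema3b was at 3.64 in rCPS1 replicate 4 (2.83 to 2.90). The monocyte marker mean was 8.70 in rTF replicate 3 (8.36 to 8.39).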

How the results depend on the processing

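No gene had an adjusted p under 0.05 in any of the 14 settings. Sema7a, Sema4a, Plxnb1, Plxna4 and Plxnb3 kept their direction wherever they were fitted, with Sema7a between -0.76 and -0.58 and Plxnb1 between 0.31 (mean of all rows) and 0.89. For most settings this was fixed in advance. All but Plxnb3 had groups that did not overlap, so leaving out an array could not turn their sign. The filter, trended variance and the replicate block leave a difference unchanged. Only quantile normalization, the mean of all rows and array weights could have turned them. The filter on dim rows removed 8 members, Plxnb3 among them. At an unadjusted p under 0.05 there were 2 ligands in place of 1 under the filter, trended variance, quantile normalization and array weights, and in place of 3 receptors there was 1 under quantile normalization and 2 under the filter, trended variance and the mean of all rows, where Plxnb1 lost its unadjusted call. Without 1 array the ligand count ran from 1 to 3, the receptor count from 1 to 3 and the partner median from -0.046 to -0.0040. The exact p without 1 array ran from 0.0286 to 0.114 for Plxna4, to 0.0857 for Sema4a and to 0.229 for Plxnb3. These tests had groups of unequal size and fewer assignments, so their exact p cannot be compared with that of all arrays. With the replicate block the receptor count was 2 and the ligand count 1. Apart from the fits without 1 array, the added ligand was Sema4a (unadjusted limma p 0.030 to 0.040, against 0.0524 in the main fit). The receptor lost under the filter, trended variance and the replicate block was Plxnb3. Under quantile normalization Plxnb3 (0.0736) and Plxna4 (0.0645) were lost. Why these p-values moved was not tested. The number of arrays limits what can be called.

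Of the 33 members 14 kept their sign in every setting and 19 turned in at least 1, with reported differences between -0.16 and 0.16. Plxnb2 turned under quantile normalization (-0.013) and array weights (-0.032), which also turned Sema3b (-0.075), Sema3c (0.12) and Sema6c (0.013). With 1 array left out, the ranges of those that turned were -0.031 to 0.28 (Nrp1), -0.035 to 0.083 (Nrp2), -0.013 to 0.27 (Plxdc1), -0.29 to 0.14 (Plxdc2), -0.27 to 0.048 (Plxna1), -0.033 to 0.26 (Plxna2), -0.14 to 0.0081 (Plxna3), -0.10 to 0.082 (Plxnb2) and -0.11 to 0.038 (Plxnd1). Among ligands they were -0.13 to 0.21 (Sema3b), -0.17 to 0.11 (Sema3c), -0.098 to 0.16 (Sema3e), -0.20 to 0.066 (Sema3f), -0.010 to 0.18 (Sema4b), -0.28 to 0.0097 (Sema4d), -0.20 to 0.35 (Sema4g), -0.19 to 0.019 (Sema5b), -0.046 to 0.24 (Sema6b) and -0.19 to 0.084 (Sema6c).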

Other observations

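Some members varied between arrays in a way the groups did not follow, a pattern noticed after the values were seen. Nrp1, Plxnd1 and Sema3d each had their 4 highest arrays in rTF replicates 2 and 4 and rCPS1 replicates 1 and 4, as did 3.56% of all genes. Plxna2, Sema3b and Sema6b each had theirs in rTF replicates 3 and 4 and rCPS1 replicates 2 and 4, as did 1.33% of all genes. The mean of the 8 B cell markers was 5.85 and 6.10 in rTF replicates 2 and 4 and 6.29 and 6.22 in rCPS1 replicates 1 and 4, against 5.04 to 5.76 in the other 4 arrays. The mean of the 12 sinusoidal endothelial markers had the same 4 highest arrays, at 11.59 and 11.48 in rTF replicates 2 and 4 and 11.48 and 11.52 in rCPS1 replicates 1 and 4, against 11.26 to 11.47 in the others. That ranking was nearly a tie, with rTF replicate 4 at 11.479 and rCPS1 replicate 2 at 11.472.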
